A study of Homo sapiens with 12 samples.

Results

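Small nucleolar RNAs (snoRNAs) were examined in MOLM-13 cells, a human line of acute myeloid leukemia that carries an MLL rearrangement. Members were all gene symbols starting with SNORD or SNORA and a digit, with rows summed per symbol, that reached at least 10 normalised counts in 3 or more of 12 libraries. A normalised count is a library's read count divided by its size factor. The table held 429 such symbols, of which 163 had no counted read in any library. The rule kept 178 members, 95 SNORD and 83 SNORA, out of 13448 symbols of any kind past the same filter and 46639 symbols in all. Of the members, 116 reached 10 in all 12 libraries, and SNORA46 passed through the ATRA libraries alone (11.6, 12.7 and 13.4). Just inside the filter by their third-highest library lay SNORD11B (10.04) and SNORA63E (10.1), and just outside lay SNORA2A (9.86) and SNORD82 (9.80). The members were thus chosen by their normalised counts, and these levels are a description.

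Cells were untreated, received 100 nM of the DNA methylation inhibitor decitabine (DAC), 1 µM all-trans retinoic acid (ATRA, a nuclear receptor ligand), or the combination (DAC+ATRA), with 3 libraries per group. All groups are described as grown in medium with fetal calf serum and GM-CSF, a myeloid growth factor. The study's methods give fetal calf serum for all its lines and do not name GM-CSF. The sample labels name 96 h for the untreated and 72 h for the treated libraries, whereas the design text and the study give 72 h for the harvest without setting untreated cells apart, so whether the times differed is unresolved. The study's methods describe a shorter exposure to ATRA. The libraries are technical triplicates of 1 line, so p-values measure only the spread within 1 experiment, and no vehicle-treated library was used here. Of 8 myeloid markers, 7 were detected, including FLT3 (7130 to 14247) and CD33 (303 to 771), and CD68 was listed at 0. PTPRC (5.11 to 50.1) and ITGAM (5.65 to 63.5) were the lowest of those detected. Among markers of other cell types, CD3E, MS4A1 and EPCAM did not exceed 3.82 in any library, whereas PECAM1 (1389 to 6153) and COL1A1 (4.87 to 86.3) passed the filter.

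SnoRNAs work in the nucleolus as the guide component of ribonucleoproteins. Box C/D RNAs (SNORD) bind fibrillarin (FBL), NOP56, NOP58 and SNU13 and mostly direct ribose methylation, while box H/ACA RNAs (SNORA) bind dyskerin (DKC1), NHP2, NOP10 and GAR1 and mostly direct the conversion of uridine to pseudouridine in ribosomal RNA. A few of them, such as U3, are instead needed to cut the ribosomal RNA precursor. In human cells most snoRNAs are excised from introns of host genes, whereas U3 genes have promoters of their own.

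The boxes and the length differed between the classes. Sequences were read from hg38 at GENCODE 44 coordinates, where all 178 members matched. The hexamer TGATGA, the core of box C, lay in the first 20 bases of the RNA strand in 60 of 95 SNORD (63.2%) and in 0 of 83 SNORA. The tetramer CTGA of box D lay in the last 15 bases in 84 SNORD (88.4%) and in 4 SNORA (4.82%). The trinucleotide ACA stood exactly 3 bases before the 3′ end in 62 of 83 SNORA (74.7%) and in 3 of 95 SNORD (3.16%). The median annotated length was 84 nt for SNORD (64 to 791) and 134 nt for SNORA (121 to 272). A same-strand host gene was annotated for 90 SNORD and 82 SNORA, protein-coding for 71 and 63 of them and a long non-coding RNA for 16 and 18. An annotated exon of another same-strand gene overlapped 62 SNORD and 45 SNORA, and reads of the snoRNA and of that exon cannot be told apart by position.

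A few guide RNAs with calls that held in every setting tried are shown with a box of their class in capitals, box D for SNORD93 (chr7:22856613-22856686, plus strand), and the ACA box for SNORA32 (chr11:93730979-93731099, minus strand) and SNORA51 (chr20:2655067-2655198, plus strand). In SNORD93 the exact TGATGA was not found in the first 20 bases.
SNORD93: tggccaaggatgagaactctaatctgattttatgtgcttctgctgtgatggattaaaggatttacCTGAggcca
SNORA32: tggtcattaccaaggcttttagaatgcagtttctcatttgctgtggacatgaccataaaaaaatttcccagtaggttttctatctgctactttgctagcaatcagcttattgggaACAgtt
SNORA51: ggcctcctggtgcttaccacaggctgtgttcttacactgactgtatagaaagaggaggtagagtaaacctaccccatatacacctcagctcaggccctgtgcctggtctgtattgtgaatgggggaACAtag

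Copies of U3 and of SNORD116 are shown because the counts of near-identical copies depend on how reads were assigned. Over the first 220 bases, counted from 1 at the 5′ end of SNORD3A (chr17:19188016-19188714, plus strand), SNORD3B-1 (chr17:19061912-19062669, plus strand) and SNORD3B-2 (chr17:19063346-19064136, minus strand) each carried A78C and were identical to each other, and SNORD3C (chr17:19189665-19190245, minus strand) carried G108A. The first 120 bases follow, with the differing bases in capitals. Annotated U3 transcripts run to 581 to 791 nt, beyond the 220 bases compared.
SNORD3A: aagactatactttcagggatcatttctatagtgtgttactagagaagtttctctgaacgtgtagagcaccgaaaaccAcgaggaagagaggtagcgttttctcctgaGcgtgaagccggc
SNORD3B-1: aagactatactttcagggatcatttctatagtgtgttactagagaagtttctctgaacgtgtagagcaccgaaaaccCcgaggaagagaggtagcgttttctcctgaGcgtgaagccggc
SNORD3C: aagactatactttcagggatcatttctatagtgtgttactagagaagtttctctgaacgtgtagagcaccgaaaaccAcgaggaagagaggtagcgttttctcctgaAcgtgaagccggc

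Among SNORD116 copies, with positions counted from 1 at the 5′ end of SNORD116-18 (chr15:25085385-25085476, plus strand), SNORD116-17 (chr15:25083588-25083679, plus strand) carried T19A, and SNORD116-14 (chr15:25080142-25080233, plus strand) carried T19A and C74T, over 92 bases. The capitals mark these positions.
SNORD116-18: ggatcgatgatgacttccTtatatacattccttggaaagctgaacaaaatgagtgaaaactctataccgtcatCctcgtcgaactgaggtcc
SNORD116-17: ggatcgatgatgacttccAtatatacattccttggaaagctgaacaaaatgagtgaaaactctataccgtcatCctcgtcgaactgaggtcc
SNORD116-14: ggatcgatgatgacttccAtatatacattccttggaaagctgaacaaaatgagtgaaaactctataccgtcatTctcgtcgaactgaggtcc

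A few RNAs carried most of the counted snoRNA signal. SNORD3A, a U3 gene, had a mean of 27322 normalised counts over the 12 libraries, SNORA73A 13538 and SNORA73B 10626 (both U17, an H/ACA RNA of precursor cleavage). Next came SNORD17 (2437), SNORA48 (838), SNORD15B (643), SNORA63 (619), SNORD13 (586, the U13 RNA that guides acetylation of ribosomal RNA), SNORD97 (580) and SNORA12 (530). Per kilobase of annotated length the order changed, with SNORA73A at 65720, SNORA73B at 52086 and SNORD3A at 39087. This order rests on the 699 nt annotated for SNORD3A, and divided by the 220 bases of U3 compared above SNORD3A would stay first. The median member had 34.6 normalised counts, against 75.3 for the median of all 13448 symbols. Reads recovered per library numbered 4.67 to 11.9 M (M stands for mega), and members took 0.532% to 1.42% of them. The libraries with DAC were shallower, at 4.67 to 7.16 M against 8.36 to 11.9 M without it.

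SNORD3A varied more between libraries than between groups. It had 6296, 4489 and 45219 normalised counts in the untreated libraries, 25184, 50202 and 5987 with DAC, 6896, 54084 and 30907 with ATRA, and 42392, 27642 and 28566 with DAC+ATRA. Untreated 1, untreated 2, DAC 3 and ATRA 1 were thus low, at 4489 to 6896, and the other 8 libraries lay at 25184 to 54084. Its pooled SD within groups was 1.43 on the log2 scale, and no comparison called it (log2 change 0.86 ± 0.77 (SE) with DAC, 1.06 ± 0.77 with ATRA and 1.57 ± 0.77 with DAC+ATRA, each n = 3, limma adjusted p 0.529, 0.324 and 0.121).

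The same 4 libraries were low in other RNAs. SNORD3C ranged from 2.44 to 10.8 in them and from 30.4 to 58.0 in the other 8. SNORA71D ranged from 15.2 to 28.4 in them and from 52.7 to 167 in the others. RN7SL1, the RNA of the signal recognition particle and no snoRNA, ranged from 366104 to 587152 in them and from 737051 to 1017470 in the others. SNORA73A did not separate these libraries (11292 to 12969 in the 4 and 9155 to 20667 in the others). The 4 libraries fall in 3 groups, and all 3 DAC+ATRA libraries are among the other 8. No label marks these libraries, and the part of this split in the results was not tested beyond a fit with the RN7SL1 level as a covariate.

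**Figure D1:**
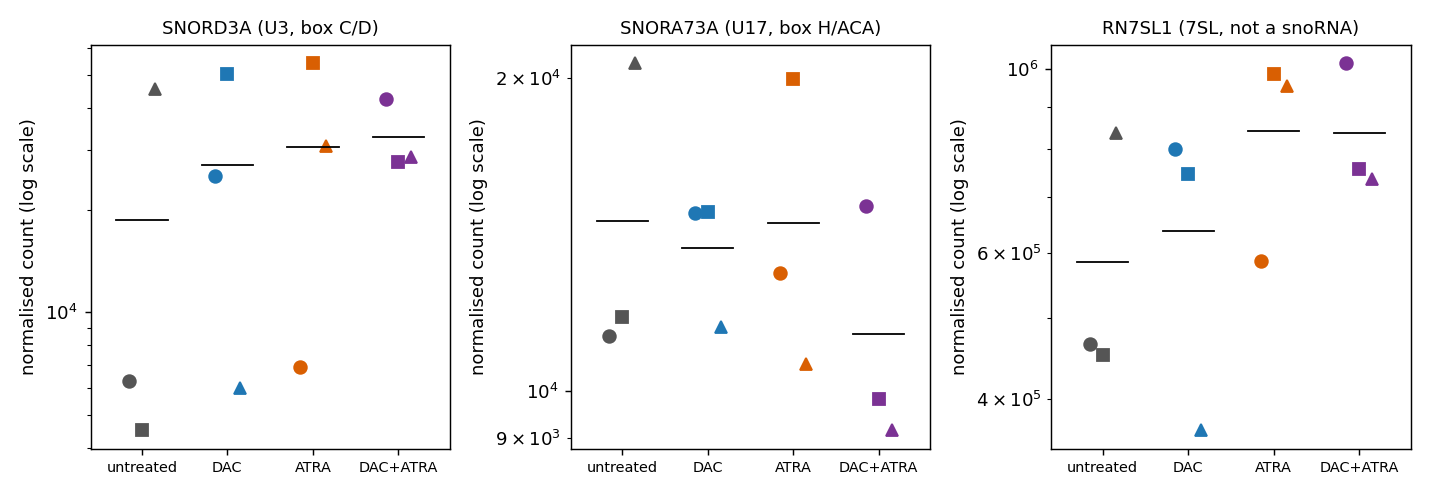
Normalised counts (log axis) of SNORD3A, SNORA73A and RN7SL1 in each library by group, with replicates 1, 2 and 3 as circles, squares and triangles and a line at the group mean. Untreated 1, untreated 2, DAC 3 and ATRA 1 lie at 4489 to 6896 for SNORD3A, below the other 8 libraries, and are also lowest for RN7SL1.

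The ratio of box C/D to box H/ACA signal depended on these few RNAs. Summed SNORD over summed SNORA was 0.612, 0.453 and 1.21 in untreated libraries, 0.994, 1.73 and 0.607 with DAC, 0.554, 1.40 and 1.5 with ATRA, and 1.46, 1.45 and 1.56 with DAC+ATRA. The DAC+ATRA libraries lay above all untreated libraries, and the single-drug groups overlapped with untreated. Without SNORD3A, SNORA73A and SNORA73B the ratio was 1.51, 1.26 and 1.18 in untreated, 1.21, 1.12 and 1.60 with DAC, 1.45, 1.19 and 1.21 with ATRA, and 1.09, 1.17 and 1.19 with DAC+ATRA, and every treated group overlapped with untreated. The 4 libraries low in SNORD3A had the 4 highest ratios in this second form (1.26 to 1.60). SNORD3A made up 37.2% to 43.2% of summed SNORD in these libraries and 75.4% to 85.0% in the others, while SNORA73A and SNORA73B made up 73.5% to 80.3% of summed SNORA in all 12.

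**Figure D2:**
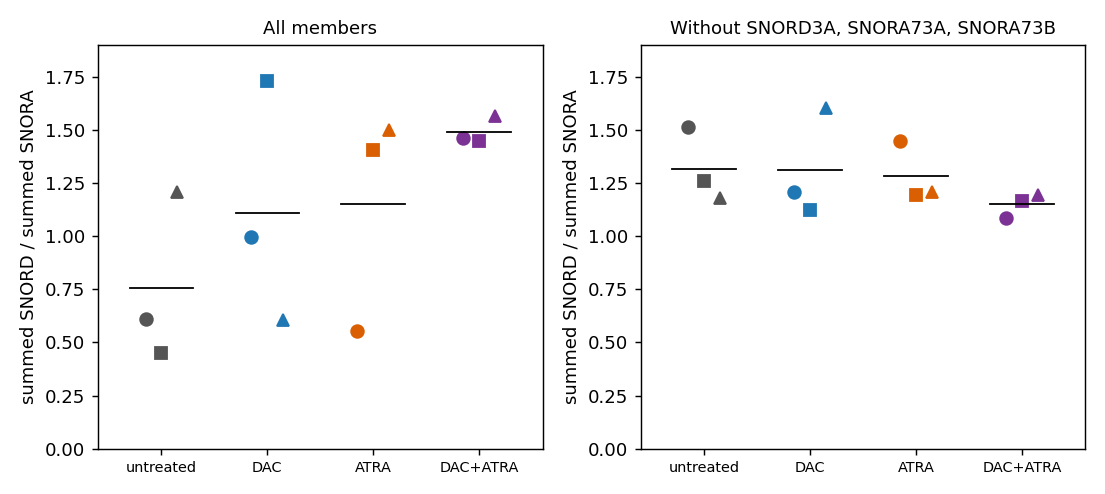
Ratio of summed SNORD to summed SNORA normalised counts per library, over all members (left) and without SNORD3A, SNORA73A and SNORA73B (right), with group means as lines and replicates 1, 2 and 3 as circles, squares and triangles. The ratio spans 0.453 to 1.73 on the left and 1.09 to 1.60 on the right.

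The share of members called was below that of all symbols in every comparison. With DAC, limma on log2(normalised count + 1) called 0 of 178 members at an adjusted p under 0.01, against 6.76% of all symbols, and edgeR and DESeq2 also called 0. An unadjusted p under 0.05 was reached by 22 members (12.4%), against 26.9% of all symbols. With ATRA, 6 members (3.37%) were called, against 23.7% of all symbols, 2 of them higher (all symbols 11.1%) and 4 lower (all symbols 12.6%). With DAC+ATRA, 9 members (5.06%) were called, against 26.1%, 2 of them higher (all symbols 12.7%) and 7 lower (all symbols 13.4%). DAC+ATRA differed from DAC in 6 members (3.37%), against 17.1%, 4 of them higher (all symbols 8.2%) and 2 lower (all symbols 8.94%). Among the higher ones, SNORA14A and SNORA59A passed the filter through the group in which they were high, so their calls are a description. DAC+ATRA differed from ATRA in 2 members (1.12%), against 10.3%, both lower (all symbols 4.96%). The difference between these shares and those of all symbols was not tested. These comparisons share control libraries. Leaving out 1 library moved the ATRA count to 2 (without untreated 2) or 3 (without untreated 1 or ATRA 2), the DAC+ATRA count to 5 (without DAC+ATRA 3) and the count against DAC to 3 (without DAC+ATRA 3), and with the RN7SL1 level as a covariate the DAC+ATRA count was 14. The shares of all symbols under these other settings are not given here.

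By class, DAC+ATRA called 8 of 95 SNORD and 1 of 83 SNORA, and ATRA called 4 and 2. Without overlap between the libraries of both groups were 21 members (11.8%) with DAC, against 29.0% of all symbols, 34 (19.1%) with ATRA, against 48.7%, and 43 (24.2%) with DAC+ATRA, against 53.1%. Between DAC+ATRA and DAC there were 27 (15.2%), against 37.7%, and between DAC+ATRA and ATRA 37 (20.8%), against 37.7%. The median log2 change of SNORD was -0.08 with DAC, -0.17 with ATRA and -0.17 with DAC+ATRA, that of SNORA -0.05, 0.02 and -0.06, and that of all symbols -0.01, -0.03 and -0.01. The median SD within groups was 0.461 log2 units for members and 0.287 for all symbols, and the part of this larger spread in the lower share of calls was not tested. The interaction, the DAC change with ATRA minus that without, called 0 members against 1.29% of all symbols by limma, and edgeR and DESeq2 also called 0. In it 9 members (5.06%) had an unadjusted p under 0.05, and the lowest adjusted p was 0.152, for SNORA51.

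**Figure D3:**
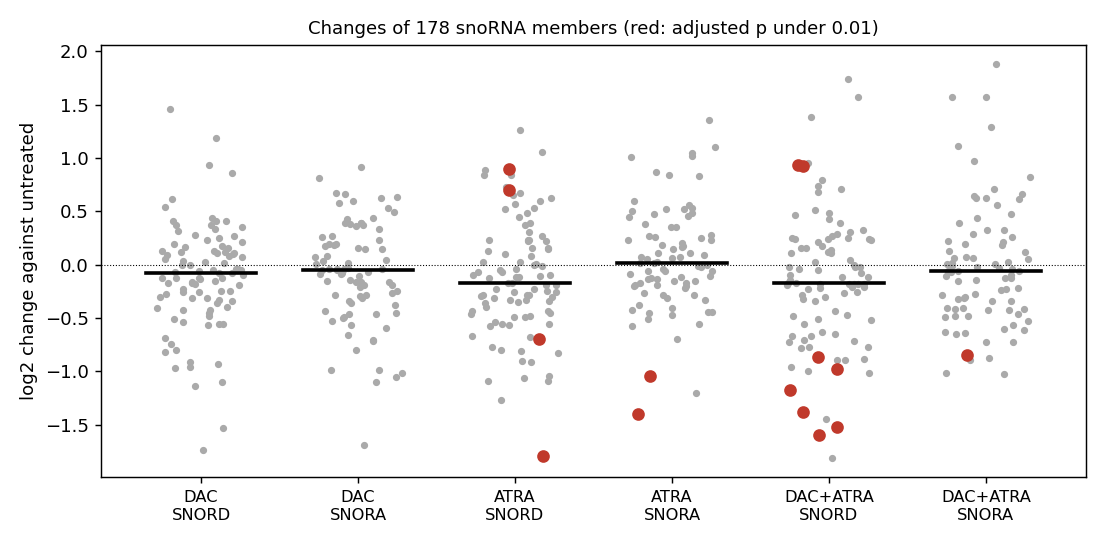
Log2 change against untreated of each of the 178 members with DAC, ATRA and DAC+ATRA, split into SNORD and SNORA, with red points called at an adjusted p under 0.01 and a line at the median. No point is red with DAC, 6 are with ATRA and 9 with DAC+ATRA, of which 8 are SNORD.

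A list of 15 RNAs that act on the ribosomal RNA precursor held the copies of U3, U14 and U17, U13, SNORD118 and SNORD22. SNORD3D, SNORD118 and SNORD22 were at 0 in all libraries and were not tested. Among other small structured RNAs, RN7SK, RPPH1 and RNU2-1 were also at 0 in all libraries. Whether such zeros mean absence was not tested. Of 12 tested RNAs, 2 rose with ATRA and the same 2 with DAC+ATRA, both annotated copies of U3. Of all symbols, 11.1% and 12.7% were called higher. The 2 copies, SNORD3B-1 and SNORD3B-2, were identical over the 220 bases compared, and reads that fit several features are left out. Counts that tell them apart would thus rest on reads reaching outside those bases, and a rise of the U3 RNA itself was not tested. SNORD3B-1 had 149, 166 and 153 normalised counts untreated, 187, 151 and 93.6 with DAC, 279, 263 and 223 with ATRA, and 311, 297 and 290 with DAC+ATRA. All ATRA and DAC+ATRA libraries lay above all untreated and DAC libraries. It rose with ATRA (log2 change 0.70 ± 0.19 (SE), limma adjusted p = 0.00768). The rise with DAC+ATRA was 0.93 ± 0.19 against untreated (limma adjusted p = 0.000700) and similar in sign against DAC (1.11 ± 0.19, adjusted p = 0.000201). The ATRA call was lost in 11 of 24 other settings, with total-read scaling, without each untreated library and without ATRA 1 or 2 among them.

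SNORD3B-2 had 170, 114 and 159 untreated, 172, 151 and 104 with DAC, 318, 237 and 264 with ATRA, and 293, 268 and 270 with DAC+ATRA, again without overlap between libraries with and without ATRA. It rose with ATRA (0.90 ± 0.19, limma adjusted p = 0.000998, lost without untreated 2 at adjusted p = 0.0112) and likewise under DAC+ATRA (0.92 ± 0.19, adjusted p = 0.000716). The 4 libraries low in SNORD3A were not set apart in either copy. SNORD3A and SNORD3C, which differ from these copies at the positions given, passed no test. SNORD14A to SNORD14E (U14, mean 20.9 to 121), SNORD13 and both SNORA73 copies passed no test either.

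**Figure D4:**
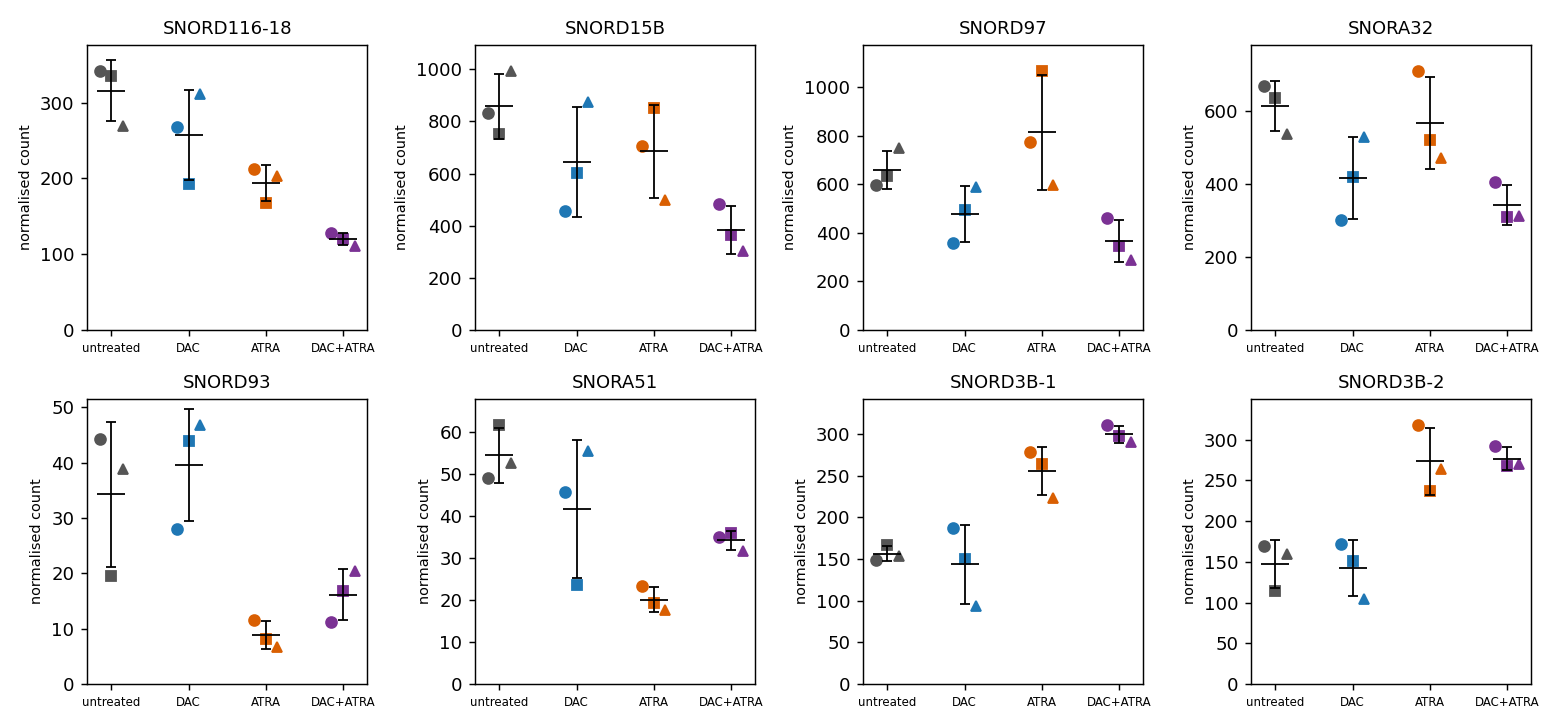
Normalised counts of 8 called members in each library, by group, with replicates 1, 2 and 3 as circles, squares and triangles and bars for the mean ± SD (n = 3). SNORD116-18 falls from 269 to 342 untreated to 111 to 127 with DAC+ATRA, and both SNORD3B copies lie higher in all ATRA and DAC+ATRA libraries than in the others.

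The imprinted snoRNA families were represented by SNORD116 alone. SNORD113 (9 symbols) and SNORD114 (30 symbols) had no counted reads, and SNORD115 (48 symbols) had 12 reads over all libraries. Of 30 SNORD116 symbols, 14 had reads and 6 were members, all within SNHG14, the long non-coding host that is transcribed from the paternal chromosome 15 and whose SNORD116 cluster is lost in Prader-Willi syndrome. SNORD116 RNAs have no known ribosomal target.

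SNORD116-18 was the most abundant copy, with 342, 335 and 269 normalised counts untreated, 267, 193 and 311 with DAC, 212, 167 and 203 with ATRA, and 127, 120 and 111 with DAC+ATRA. The DAC libraries overlapped with untreated, the ATRA libraries lay below untreated, and the DAC+ATRA libraries lay below all others. It fell by 0.70 ± 0.17 (SE) on the log2 scale with ATRA (limma adjusted p = 0.00375) and by 1.38 ± 0.17 under DAC+ATRA (adjusted p = 3.5e-06). DAC+ATRA was also lower than DAC (-1.07 ± 0.17, adjusted p = 9.9e-05) and than ATRA (-0.69 ± 0.17, adjusted p = 0.00832). The call against ATRA was lost in 11 of 24 other settings and that of ATRA against untreated in 4, without untreated 1, untreated 2 or ATRA 2 and with the RN7SL1 covariate. Those of DAC+ATRA against untreated and against DAC were kept in all 24.

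SNORD116-17, chosen after its values were seen, had 38.1, 26.8 and 16.9 untreated, 24.2, 20.4 and 42.5 with DAC, 6.27, 16.4 and 10.03 with ATRA, and 7.0, 13.5 and 6.13 with DAC+ATRA. It was lower with DAC+ATRA than untreated (-1.52 ± 0.43, limma adjusted p = 0.00938), a call lost in 10 of 23 other settings, and than DAC (-1.61 ± 0.43, adjusted p = 0.00910), lost in 14 of 23. Of the remaining copies, none was called. SNORD116-7 had means of 54.9 ± 27.1 (SD, n = 3) untreated, 103 ± 46.7 with DAC, 41.1 ± 3.18 with ATRA and 71.9 ± 17.5 with DAC+ATRA (log2 change with DAC+ATRA 0.48 ± 0.34 (SE), adjusted p = 0.283). A difference between copies was not tested. SNHG14 itself fell with ATRA (-0.80 ± 0.10, adjusted p = 3.6e-06) and also in DAC+ATRA libraries (-0.56 ± 0.10, adjusted p = 0.000221). The test of DAC+ATRA against ATRA gave 0.25 ± 0.10 for SNHG14 (adjusted p = 0.101) and -0.69 for SNORD116-18.

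The abundant guides with calls were lower with DAC+ATRA. SNORD15B, within an intron of the ribosomal protein gene RPS3 and a guide of ribosomal RNA methylation, had 832, 750 and 996 untreated, 457, 604 and 874 with DAC, 705, 851 and 498 with ATRA, and 484, 366 and 303 with DAC+ATRA. The DAC+ATRA libraries lay below all untreated and all ATRA libraries and overlapped with DAC. It fell by 1.18 ± 0.22 on the log2 scale (limma adjusted p = 0.000293), while SNORD15A in the same host gave -0.19 ± 0.22 (adjusted p = 0.550) and RPS3 fell by 0.42 ± 0.10 (adjusted p = 0.00392).

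SNORD97, known as a guide for the elongator methionine tRNA and annotated in EIF4G2, had 598, 632 and 748 untreated, 357, 492 and 588 with DAC, 776, 1069 and 599 with ATRA, and 462, 347 and 289 with DAC+ATRA. It was lower with DAC+ATRA than untreated (-0.87 ± 0.21, limma adjusted p = 0.00249, lost without untreated 3, DAC+ATRA 2 or DAC+ATRA 3) and than ATRA (-1.14 ± 0.21, adjusted p = 0.000621, kept in all 24 other settings). EIF4G2 was not called in any of these comparisons (0.28 ± 0.13 with DAC+ATRA, adjusted p = 0.111).

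TAF1D, which encodes a subunit of the RNA polymerase I selectivity factor, holds 8 members, and 2 of them were called. SNORA32 had 669, 636 and 538 untreated, 303, 419 and 528 with DAC, 711, 520 and 472 with ATRA, and 405, 311 and 311 with DAC+ATRA. Its DAC and DAC+ATRA libraries lay below all untreated libraries, and it fell with DAC+ATRA (-0.85 ± 0.19, limma adjusted p = 0.00127) but did not pass the threshold with DAC (-0.59 ± 0.19, adjusted p = 0.0403). SNORD5, chosen after its values were seen, fell from 96.0 ± 9.65 (SD, n = 3) to 48.7 ± 10.4 (adjusted p = 0.00753, lost in 10 of 24 other settings). The 6 others (SNORA1, SNORA8, SNORA18, SNORA25, SNORA40 and SNORD6) gave log2 changes of -0.42 to 0.64 with DAC+ATRA and were not called, whereas TAF1D fell by 0.60 ± 0.13 (adjusted p = 0.000944).

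SNORD87, a box C/D guide within the long non-coding RNA SNHG6, had 171, 125 and 74.0 untreated, 39.4, 91.0 and 216 with DAC, 115, 44.6 and 61.0 with ATRA, and 40.6, 33.8 and 39.8 with DAC+ATRA. It was lower with DAC+ATRA than untreated (-1.59 ± 0.44, limma adjusted p = 0.00801), and this call was lost in 11 of 24 other settings, DESeq2 among them. The DAC libraries spread widely and included both a low and the highest value.

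With ATRA alone, 3 further guides fell. SNORD93, in SNHG26, had 44.3, 19.5 and 38.9 untreated, 28, 43.9 and 46.8 with DAC, 11.6, 8.19 and 6.69 with ATRA, and 11.2, 16.9 and 20.4 with DAC+ATRA. All ATRA libraries lay below all untreated libraries, from 8 to 13 reads each (log2 change -1.79 ± 0.37 (SE), limma adjusted p = 0.000841). SNHG26 fell as well (-1.18 ± 0.16, adjusted p = 6.9e-06).

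SNORA51, in NOP56, had 49.0, 61.7 and 52.7 untreated, 45.8, 23.5 and 55.5 with DAC, 23.3, 19.3 and 17.6 with ATRA, and 35, 36 and 31.7 with DAC+ATRA. The ATRA libraries were the lowest of all, and it fell with ATRA (-1.40 ± 0.29, limma adjusted p = 0.000929). The host NOP56 fell with ATRA (-0.71 ± 0.12, adjusted p = 0.000158) and was not called with DAC+ATRA (-0.09 ± 0.12, adjusted p = 0.617). SNORD86 and SNORD110 of the same host gave -0.83 ± 0.24 (adjusted p = 0.0102) and -0.81 ± 0.26 (adjusted p = 0.0187) with ATRA and did not pass.

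SNORA65, in RPL12, had 54.4, 51.1 and 44.5 untreated, 44.5, 42.3 and 30.5 with DAC, 26.9, 17.9 and 27.6 with ATRA, and 29.4, 54.0 and 32.7 with DAC+ATRA. It fell with ATRA (-1.04 ± 0.28, limma adjusted p = 0.00754), and leaving out any 1 of the untreated or ATRA libraries ended the call. RPL12 fell in all 3 treatments (-0.59, -0.75 and -1.07).

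A pair of H/ACA RNAs of low level, both chosen after their values were seen, completes the 6 members called between DAC+ATRA and DAC. Each reached 10 in all 3 DAC+ATRA libraries and in 1 ATRA library only, so each passed the filter through the group in which it was high, and its values are given as a description. SNORA14A had 3.89, 4.87 and 2.51 untreated, 2.54, 0 and 4.35 with DAC, 18.8, 7.44 and 9.20 with ATRA, and 12.6, 18.0 and 18.4 with DAC+ATRA, that is 0 to 4 reads with DAC and 9 to 18 with DAC+ATRA. Its host POR, which encodes cytochrome P450 oxidoreductase, rose with ATRA from 28.7 ± 6.16 to 285 ± 63.4 (SD, n = 3; log2 change 3.27 ± 0.30, limma adjusted p = 6.7e-08). SNORA59A had 0 to 5 reads with DAC and 10 to 12 with DAC+ATRA, and its call was lost in 17 of 23 other settings.

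Host genes were tested in the same fit. Of 94 tested hosts, limma called 1 higher and 7 lower with DAC, against 3.68% of all symbols higher and 3.08% lower. With ATRA it called 2 hosts higher and 21 lower, against 11.1% and 12.6% of all symbols, and with DAC+ATRA 3 higher and 23 lower, against 12.7% and 13.4%. These shares were not tested against each other. With ATRA, 43 of 164 members with a tested host had a called host, and 4 of these members were called themselves, which are all 4 called members with a tested host. With DAC+ATRA, 56 members had a called host, and 6 of 7 called members with a tested host were among them, SNORD97 being the exception. Member and called host changed in the same direction for 30 of the 43 members with ATRA and 39 of the 56 with DAC+ATRA. Across the 164 members the Pearson correlation of member and host log2 changes was 0.06 with DAC, 0.47 with ATRA and 0.33 with DAC+ATRA. The 164 include SNORA14A and SNORA59A, which passed the filter through the group in which they were high. The correlation without them was not computed. The 164 points share libraries and hosts, and several members lie in 1 host. Reads that fit both a member and a host exon may be left out of both, so the values are given as a description. SNHG3, the host of both SNORA73 copies, fell with ATRA (-0.85 ± 0.14, adjusted p = 8.2e-05), while SNORA73A and SNORA73B gave 0.00 ± 0.23 and 0.11 ± 0.26.

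**Figure D5:**
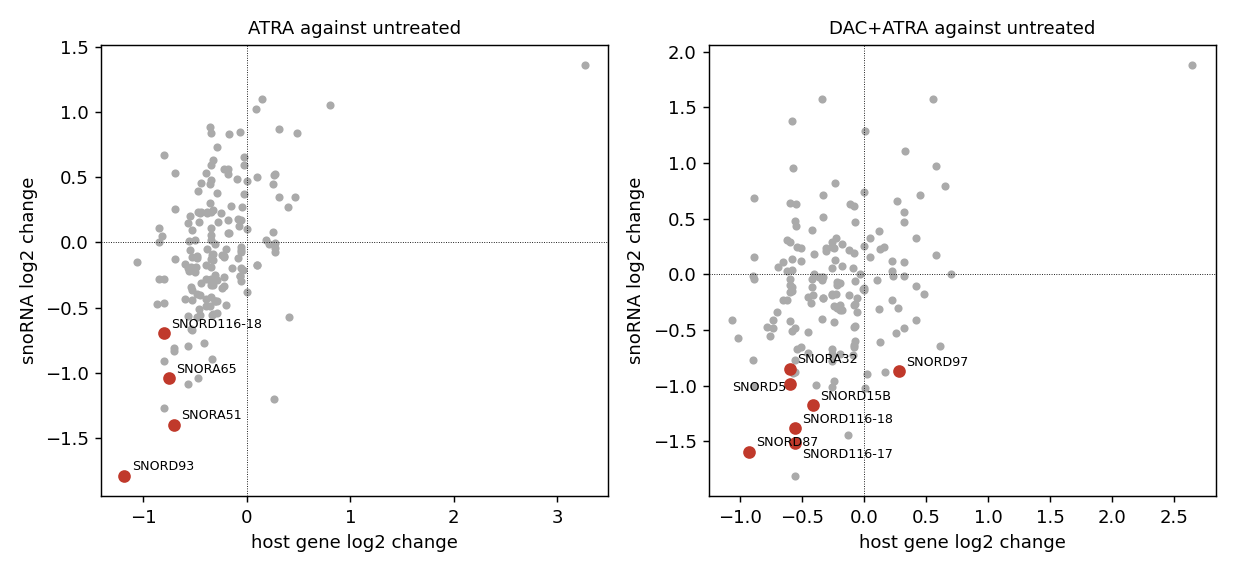
Log2 change of each member (vertical) against that of its host gene (horizontal) for the 164 members with a tested host, with ATRA (left) and DAC+ATRA (right), red where the member was called. All 4 red members with ATRA and 6 of 7 with DAC+ATRA lie on the side where both fell, SNORD97 being the exception, and the point at the far right of each panel is SNORA14A with its host POR.

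Genes for proteins that bind or assemble snoRNAs were followed as a further set. Of all symbols, 3.08% were called lower with DAC, 12.6% with ATRA and 13.4% with DAC+ATRA, and the counts below were not tested against these shares. Among 4 box C/D core proteins, FBL, the methyltransferase (3928 ± 773 untreated, 1915 ± 267 with ATRA, log2 change -1.03 ± 0.15), NOP56 and NOP58 (-0.57 ± 0.12) fell with ATRA, and FBL also fell with DAC+ATRA (-0.78 ± 0.15). The remaining one, SNU13, was not called (-0.13 ± 0.11 with ATRA, and 0.37 ± 0.11 with DAC+ATRA, limma adjusted p = 0.0105). None of 4 box H/ACA core proteins was called in any treatment against untreated. Of these, GAR1 (10.4 to 37.6) and DKC1 (51.3 to 96.9) had low counts, with changes of -0.17 ± 0.41 and -0.15 ± 0.22 with ATRA. Reads were counted per transcript and those that fit several features are left out, so such counts may understate the level of a gene. NHP2 gave -0.36 ± 0.12 with ATRA (limma adjusted p = 0.0257) and NOP10 -0.05 ± 0.14. A difference between the C/D and H/ACA proteins was not tested. Of 12 tested assembly factors, RUVBL1 (-0.85 ± 0.14) and RUVBL2 (-1.09 ± 0.15), the paired helicases of snoRNP assembly, and COIL (-0.51 ± 0.12) fell with ATRA, and PIH1D1 (-0.55 ± 0.11) fell with DAC+ATRA. Between DAC+ATRA and ATRA, NOP56, SNU13, NHP2, RUVBL1 and RUVBL2 were called higher with DAC+ATRA, and no core protein or assembly factor was called lower. Of all symbols, 10.3% were called there in either direction. Of 10 RNA polymerase I genes, POLR1D fell with DAC (-0.60 ± 0.10) and DAC+ATRA (-0.71 ± 0.10), POLR1E with ATRA (-1.07 ± 0.20) and TAF1D with DAC+ATRA. Of a list of 15 tested hosts, long non-coding RNAs and TAF1D, 2 fell with DAC, 8 with ATRA and 7 with DAC+ATRA, and none rose. Of 13 tested scaRNAs, the guides of Cajal bodies, 0 were called by limma in any comparison, and of 12 other small structured RNAs, RNU5A-1 fell with DAC (-1.09 ± 0.25, adjusted p = 0.00691).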

How the data were processed

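Ribosomal RNA was depleted from total RNA of 12 MOLM-13 libraries, which were sequenced strand-specifically. Per the labels and methods, the authors used STAR for alignment to hg38, HTSeq for counting per transcript and DESeq2 size factors for scaling, so the deposited table holds a normalised signal in place of raw counts. Tool versions are not given in the sources used here. All values (100%, tolerance 0.01) were whole multiples of 1 step per library, which recovered 4.67 to 11.9 M reads. HTSeq leaves out reads that fit several features, so levels of near-identical or overlapping RNAs are uncertain. For the same reason a count of 0 need not mean absence, and counts of genes with overlapping transcripts may understate their level. Library kits of this type recover RNAs as short as most snoRNAs incompletely.

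Rows were summed per symbol, and 13448 symbols with at least 10 in 3 columns entered 1 limma 3.58.1 fit (R 4.3.3, trend) on log2(value + 1), 1 coefficient per group, with Benjamini-Hochberg adjustment over all of them within each comparison and a threshold of 0.01. A fold change on this scale understates that of low RNAs. Columns named CTRL were taken as untreated. Hosts, coordinates and exons came from GENCODE 44 on hg38, which matched 88.9% of rows. Named members were the 5 highest of each class, up to 3 largest called rises and falls per class and treatment with a mean of at least 20, the RNAs acting on the ribosomal RNA precursor, imprinted families and threshold neighbours. Members and lists were chosen with earlier results of these data known. Alternatives were edgeR 4.0.16 and DESeq2 1.42.0 on recovered reads, other scalings, pseudocounts, filters and thresholds, a replicate block, each library left out, and, added after seeing the data, RN7SL1 as a covariate and medians without SNORD3A, SNORA73A and SNORA73B. The fits were tested on simulated data. Some markers of other cell types and 1 sequence are not reported here.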

Additional observations from a re-analysis of the deposited data

How the results depend on the processing

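The counts of called members changed with several settings. The shares of all symbols called under these settings are not given here. The counts thus do not tell a change of the members from a change of all symbols. At an adjusted p under 0.05 the count was 3 for DAC, 11 for ATRA, 19 for DAC+ATRA, 11 for DAC+ATRA against DAC and 8 for DAC+ATRA against ATRA. With the RN7SL1 level as a covariate it was 1 for DAC, 14 for DAC+ATRA and 4 for DAC+ATRA against ATRA. DAC+ATRA against ATRA also gave 4 with edgeR, DESeq2 or a pseudocount of 5, and 1 with total-read scaling, no filter or the replicate block. DAC+ATRA against DAC gave 3 with at least 50 counts in 3 columns. Leaving out 1 library gave 0 to 2 for DAC (2 without DAC 3), 2 to 8 for ATRA (2 without untreated 2, 3 without untreated 1 or ATRA 2), 5 to 13 for DAC+ATRA (5 without DAC+ATRA 3), 3 to 9 for DAC+ATRA against DAC (3 without DAC+ATRA 3) and 1 to 4 for DAC+ATRA against ATRA (4 without DAC 1 or DAC 3). The cause was not tested. The interaction stayed at 0 called in all settings run. The class medians moved by less than the spread. The ratio of summed SNORD to summed SNORA cannot change with the scaling of a library, and the sums themselves were not recomputed. Over 140 results of single members, 0 reversed, 103 values fell below the threshold, 45 passed it and 3172 did neither. Most of these results were not called in the main fit, and only a called result can fall below the threshold. The 3172 thus do not measure how stable the calls were. Single calls were lost in 0 (SNORA32) to 17 of 23 (SNORA59A) other settings.

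Same-numbered libraries did not deviate together (18 pairs, r -0.225 to 0.0941, 0 over 0.1). Differently numbered libraries reached r 0.209 (untreated 1 and DAC 3) and 0.183 (DAC 3 and ATRA 1). Whether the numbers mark pairs by design cannot be read from these values. The replicate block gave 0 calls for DAC, 6 for ATRA, 6 for DAC+ATRA, 6 for DAC+ATRA against DAC and 1 for DAC+ATRA against ATRA. Reads per library limit the low RNAs most, since SNORA14A and SNORA59A rest on 0 to 21 reads.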
